A study of Mus musculus with 12 samples.

Results

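The genes described here mark T cells, natural killer cells and the lymphocytes that live between the epithelial cells of the gut. They were followed in 12 arrays of mouse colon epithelium. Their members were chosen by gene symbol and are Cd3d, Cd3g, Cd4, Cd8a, Gzma, Gzmb, Itgae, Nkg7, Lck and Ptprc. In the array annotation 9 of these 10 genes had a probe set named for them alone, 11 probe sets in all, among 22626 tested probe sets that named 12393 genes. Cd4 and Cd8a had a pair of probe sets each, the other 7 genes had 1, and Lck, the kinase that starts T cell receptor signalling, is not analysed here. All 11 entered the tests, since no filter on signal was set.

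Intraepithelial lymphocytes are T cells that sit above the basement membrane of the gut, next to the epithelial cells they survey. Many carry CD8 and hold cytotoxic granules, and the integrin chain encoded by Itgae binds E-cadherin on the epithelial cell. Natural killer cells share the granule proteins but lack the T cell receptor and its CD3 chains, whereas CD45, the product of Ptprc, is found on all leukocytes.

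The mice were male C57BL/6 animals aged 6 to 8 weeks, given a soya-free powder for 14 days. For the last 24 hours they ate either that powder with 6200 ppm quercetin, a plant flavonol, about 7 mg for each mouse, or the powder alone. The groups were POR-null mice on quercetin, POR-null mice on control diet, wild type mice on quercetin and wild type mice on control diet. Each had 3 arrays, and each array held RNA pooled from 3 mice. POR is the reductase that feeds electrons to microsomal cytochromes P450. The labels used here name no promoter for the deletion, and from the literature the line is known to lack the enzyme in hepatocytes, so the colon of these mice may still hold it. RNA came from the scraped epithelial layer, so lymphocytes entered with the scraping, and no cells were sorted. In such bulk RNA, fewer cells of a type and less RNA per cell cannot be told apart.

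Array medians lay between 5.9 and 5.98 log2 units. The 16 measured colon epithelium markers had list means from 11.33 to 11.63 over the 12 arrays, with Epcam, an epithelial adhesion protein, between 11.91 and 12.32. The T cell receptor list mean ran from 5.4 to 5.69 and that of natural killer and cytotoxic genes from 5.34 to 5.61. Some other cell types varied more from array to array. The smooth muscle list mean ran from 6.22 to 9.57, with its top in wild type quercetin array 3. That of the B and plasma cell list ran from 6.27 to 7.83, and that of the pancreatic acinar list from 5.99 to 10.01, the last in POR-null quercetin array 2. These values stand beside the lymphocyte genes below, and their part in any difference was not tested.

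Signal of the members lay in the middle of the array for most genes. By mean signal, the dimmer Cd4 probe set stood at the 20.3 percentile of all probe sets and the dimmer Cd8a probe set at the 26.3 percentile. The highest was Gzma at the 75.4 percentile. The lower quartile of an array lay between 4.66 and 4.78, so the dimmer Cd4 probe set, at 4.31 to 4.57, was below it in all 12 arrays, and detection calls were not used here. Replicate spread set the members apart more than level did. The SD within groups was 0.75 for Ptprc, 0.53 for Gzma, 0.49 for Cd3g and 0.43 for Gzmb, which are the 99.3, 98.6, 98.3 and 97.8 percentiles of all probe sets. It was 0.09 and 0.06 for the Cd4 probe sets and 0.10 and 0.12 for those of Cd8a.

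**Figure D1:**
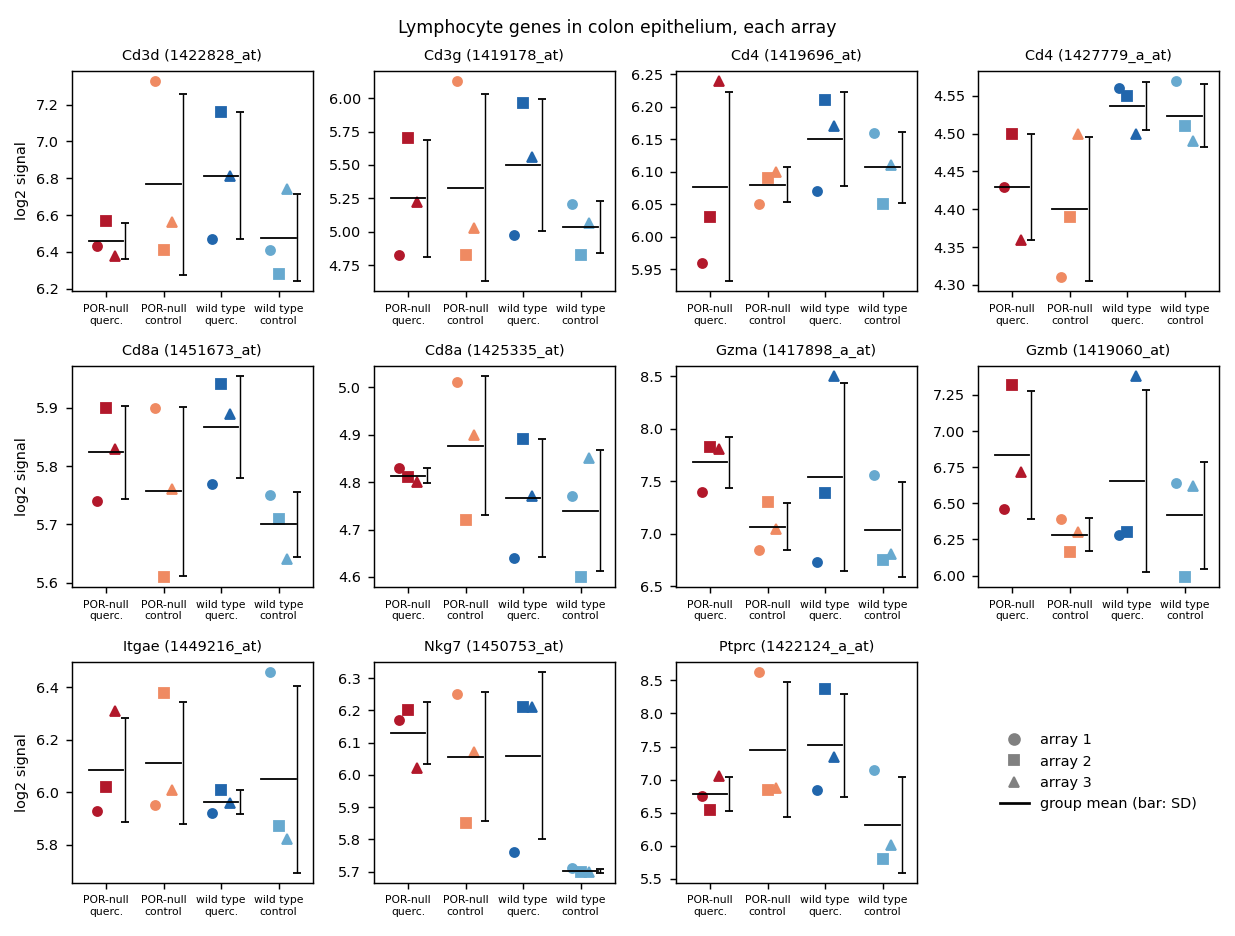
Log2 signal (y axis, scaled separately in each panel) of the 11 probe sets in the 4 groups (x axis), with 1 point per array, a line at the group mean and a bar of 1 SD beside it. Ptprc, Cd3d and Cd3g were highest in POR-null control array 1 and wild type quercetin array 2, Gzma and Gzmb in wild type quercetin array 3 and POR-null quercetin array 2, and the 3 wild type control arrays had the lowest Nkg7.

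Cd3d and Cd3g encode the delta and gamma chains of CD3, which carry the signal of the T cell receptor into the cell. Cd3d had 6.43, 6.57 and 6.38 log2 units in POR-null quercetin arrays 1, 2 and 3, against 7.33, 6.41 and 6.56 in POR-null control arrays. In wild type mice it had 6.47, 7.16 and 6.81 on quercetin and 6.41, 6.28 and 6.74 on control diet. Single arrays stood out rather than groups, with POR-null control array 1 and wild type quercetin array 2 as the highest. Cd3g had 4.83, 5.70 and 5.22 in POR-null quercetin arrays, against 6.13, 4.83 and 5.03 in POR-null control arrays. It had 4.98, 5.96 and 5.56 in wild type quercetin arrays and 5.21, 4.83 and 5.07 in wild type control arrays. The same arrays were the highest pair, and in each comparison the groups overlapped.

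For Cd3d the difference between quercetin and control diet was 0.34 (SE 0.22, 95% interval -0.15 to 0.82) in wild type mice, with means of 6.81 ± 0.35 on quercetin and 6.48 ± 0.24 on control diet (SD, n = 3 arrays each). In POR-null mice it was -0.31 (SE 0.22), with 6.46 ± 0.10 on quercetin and 6.77 ± 0.49 on control diet (SD, n = 3 arrays each). The interaction, the quercetin difference in POR-null mice minus that in wild type mice, was -0.64 (SE 0.32, -1.33 to 0.04). None passed, with limma adjusted p of 0.957, 1 and 0.998. Cd3g differed by 0.46 (SE 0.32) after quercetin in wild type mice and by -0.08 (SE 0.32) in POR-null mice, with adjusted p of 0.957 and 1 by limma. Without POR-null control array 1 the quercetin difference in POR-null mice was -0.03 for Cd3d and 0.32 for Cd3g. Without wild type quercetin array 2 the quercetin difference in wild type mice was 0.16 for Cd3d and 0.23 for Cd3g.

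Levels of Cd3d and Cd3g went together over the 12 arrays, with r = 0.86 and rho = 0.71, and with r = 0.88 after each group's mean was taken off. Without the 2 arrays farthest from the median of Cd3d, r was 0.56. Correlations in this text are descriptions over 12 arrays, without a p, since the genes were chosen with results known and share the depth and cell mix of each array. These genes are neighbours on chromosome 9 and are read in opposite directions, with starts 1355 bases apart (RefSeq, GRCm38.p6). The 250 bases before each start are shown because these genes moved together, read 5′ to 3′ on the gene's strand. Capitals mark matches, on either strand, to 4 short motifs bound by factors that act in lymphocytes. The RUNX motif was searched as TGTGGT. The ETS motif was searched as AGGAAG. The E-box, bound by E proteins, was searched as CAGGTG. The GATA motif was searched as AGATAA. No motif here was allowed a mismatch.
Cd3d: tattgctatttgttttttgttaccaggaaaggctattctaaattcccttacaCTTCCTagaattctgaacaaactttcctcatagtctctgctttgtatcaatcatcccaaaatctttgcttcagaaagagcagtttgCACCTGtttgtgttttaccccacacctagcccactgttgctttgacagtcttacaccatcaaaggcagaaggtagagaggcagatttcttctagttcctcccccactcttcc
Cd3g: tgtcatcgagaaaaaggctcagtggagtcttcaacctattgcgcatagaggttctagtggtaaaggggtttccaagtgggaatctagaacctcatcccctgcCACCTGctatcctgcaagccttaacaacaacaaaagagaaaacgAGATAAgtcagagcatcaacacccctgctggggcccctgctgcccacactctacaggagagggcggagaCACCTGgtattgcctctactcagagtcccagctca
The first lies at chr9:44981536-44981785 on the plus strand and the second at chr9:44980432-44980681 on the minus strand. The Cd3d window held an ETS match that began 198 bases before the start and an E-box match at 112. The Cd3g window held E-box matches at 148 and 35 and a GATA match at 104. Of all 32851 RefSeq windows of this length 17.2% held the E-box letters, 29.5% the ETS letters and 10% the GATA letters. A match describes letters and does not show binding.

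Cd4 encodes the coreceptor of helper T cells and Cd8a a chain of the CD8 coreceptor of cytotoxic and intraepithelial T cells. The brighter Cd4 probe set ran only from 5.96 to 6.24 over the 12 arrays, with a median of 6.09. Its group means lay between 6.08 and 6.15, and the 5 fitted comparisons lay between -0.07 and 0.04. For quercetin in wild type mice the 95% interval was -0.16 to 0.25 and in POR-null mice -0.21 to 0.20. The dimmer probe set followed a different course over the arrays (r = 0.13 and rho = 0.14 between them). Its largest difference was -0.12 (SE 0.08, limma adjusted p = 0.782) between POR-null and wild type mice on control diet, with means of 4.40 and 4.52.

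The brighter Cd8a probe set had 5.77, 5.94 and 5.89 in wild type quercetin arrays 1, 2 and 3, against 5.75, 5.71 and 5.64 in wild type control arrays. All quercetin arrays lay above all control arrays. The difference was 0.17 (SE 0.10, 95% interval -0.04 to 0.38, limma adjusted p = 0.957). In POR-null mice it had 5.74, 5.90 and 5.83 on quercetin and 5.90, 5.61 and 5.76 on control diet, which overlapped, with a difference of 0.07 (SE 0.10). The dimmer probe set differed by 0.03 in wild type mice and -0.06 in POR-null mice (SE 0.10 each), so the separation in wild type mice was seen with 1 of the 2 probe sets. Over the arrays the brighter probe set went with Cd3g (r = 0.86, rho = 0.86, and 0.90 within groups).

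Gzma and Gzmb encode granzymes A and B, serine proteases that cytotoxic T cells and natural killer cells release into their targets. Gzma had 7.40, 7.83 and 7.81 log2 units in POR-null quercetin arrays, against 6.85, 7.30 and 7.05 in POR-null control arrays. Gzmb had 6.46, 7.32 and 6.72 in POR-null quercetin arrays, against 6.39, 6.16 and 6.30 in POR-null control arrays. For both granzymes, all POR-null quercetin arrays lay above all POR-null control arrays. The difference was 0.61 for Gzma (SE 0.35, 95% interval -0.14 to 1.36), with means of 7.68 ± 0.24 on quercetin and 7.07 ± 0.23 on control diet. For Gzmb it was 0.55 (SE 0.29, -0.07 to 1.17), with means of 6.83 ± 0.44 on quercetin and 6.28 ± 0.12 on control diet (SD, n = 3 arrays each). Neither passed by limma (adjusted p = 1 for both, unadjusted p = 0.101 and 0.0773). Arrays without overlap in this direction made up 3.49% of all probe sets. The pancreatic acinar list separated the same groups, with means of 6.92, 10.01 and 6.32 in POR-null quercetin arrays, against 5.99, 6.06 and 6.05 in POR-null control arrays. All 9 of its genes were higher on quercetin (median 1.77), 7 of them without overlap. The Gzmb difference was 0.31 without POR-null quercetin array 2, the array with the highest acinar mean. With any 1 array left out, the Gzma difference was at least 0.51. Over the 12 arrays r with the acinar mean was 0.26 for Gzma and 0.36 for Gzmb. Without the 2 arrays farthest from the median of the acinar mean, r was -0.12 and -0.37. A link between the acinar list and the granzymes was not tested.

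In wild type mice Gzma had 6.73, 7.39 and 8.50 on quercetin, against 7.56, 6.75 and 6.81 on control diet. Gzmb had 6.28, 6.30 and 7.38 on quercetin, against 6.64, 5.99 and 6.62 on control diet. For both, array 3 was the highest on quercetin, and the groups overlapped. Gzma in quercetin array 2, at 7.39, also lay above control arrays 2 and 3. The differences were 0.50 (SE 0.35) for Gzma and 0.24 (SE 0.29) for Gzmb, with limma adjusted p of 0.957 and 0.973. Without wild type quercetin array 3 they were 0.02 and -0.13. That array also had the highest smooth muscle list mean, 9.57, against 6.55 and 7.80 in the other wild type quercetin arrays. With the smooth muscle mean, r over the 12 arrays was 0.75 for Gzma and 0.53 for Gzmb. Without the 2 arrays farthest from the median of that mean it was 0.43 and 0.23. With the natural killer and cytotoxic list r was 0.72 and 0.61, and with colon epithelium -0.60 and -0.58. Without the 2 farthest arrays of each list these were 0.49 and 0.23, and -0.05 and -0.13. A link between smooth muscle and the granzymes was not tested. The quercetin difference did not pass as different between genotypes, with interactions of 0.11 (SE 0.49, -0.95 to 1.17) for Gzma and 0.31 (SE 0.41, -0.56 to 1.19) for Gzmb (limma adjusted p = 0.998 for both). Between genotypes on the same diet the granzymes differed by -0.13 to 0.18.

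The granzymes went together over the arrays (r = 0.81, rho = 0.80, 0.75 within groups, and 0.67 without the 2 arrays farthest from the median of Gzma). With Cd3d, r was -0.02 for Gzma and 0.11 for Gzmb, and with Cd3g 0.27 and 0.39. Without the 2 arrays farthest from the median of Cd3g, wild type quercetin array 2 and POR-null control array 1, r with Cd3g was 0.74 for Gzma and 0.95 for Gzmb. The genes lie on different chromosomes, Gzma at chr13:113093824-113100981 and Gzmb at chr14:56258836-56262334 (RefSeq, GRCm38.p6). The 250 bases before each start are shown because the granzymes went together over the arrays, with capitals as above.
Gzma: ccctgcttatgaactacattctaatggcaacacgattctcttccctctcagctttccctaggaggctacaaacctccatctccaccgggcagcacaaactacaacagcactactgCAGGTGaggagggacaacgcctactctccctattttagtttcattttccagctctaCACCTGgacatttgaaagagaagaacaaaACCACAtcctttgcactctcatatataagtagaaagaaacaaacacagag
Gzmb: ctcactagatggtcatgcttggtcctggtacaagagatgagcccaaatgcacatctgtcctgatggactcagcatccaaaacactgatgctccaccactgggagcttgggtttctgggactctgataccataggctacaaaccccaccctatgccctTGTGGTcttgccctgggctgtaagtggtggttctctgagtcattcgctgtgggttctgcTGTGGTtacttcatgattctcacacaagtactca
The windows lie at chr13:113100982-113101231 and chr14:56262335-56262584, both on the minus strand. Both held the RUNX letters, which began 50 bases before the start in Gzma and 93 and 34 bases before it in Gzmb. The Gzma window also held E-box letters at 135 and 79. Over all RefSeq windows 14.0% held the RUNX letters. Of the 8 members with a window, Gzma, Gzmb, Nkg7 and Lck held them, in 4 of 10 windows. RUNX was not alone in this, as the ETS letters were in 6 of these 10 windows, the E-box letters in 4 and the GATA letters in 2. Their shares over all RefSeq windows were 29.5%, 17.2% and 10%. The 6 ETS windows came from 4 genes, since Lck and Ptprc each had more than 1 window. The Ptprc windows overlap and share an ETS match, which was counted in both. Lck counts here by its windows alone.

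Nkg7 encodes a membrane protein of cytotoxic granules. It had 6.17, 6.20 and 6.02 log2 units in POR-null quercetin arrays, against 6.25, 5.85 and 6.07 in POR-null control arrays. It had 5.76, 6.21 and 6.21 in wild type quercetin arrays and 5.71, 5.70 and 5.70 in wild type control arrays. The 3 wild type control arrays were the lowest of all 12, while the other groups overlapped with each other. The quercetin difference in wild type mice was 0.36 (SE 0.13, 95% interval 0.07 to 0.64, unadjusted p = 0.0191, limma adjusted p = 0.952). The genotype difference on control diet was 0.35 (SE 0.13, 0.07 to 0.64, unadjusted p = 0.0200, limma adjusted p = 0.718). These comparisons share the wild type control arrays. In POR-null mice the quercetin difference was 0.07 (SE 0.13), and the interaction was -0.28 (SE 0.19, -0.69 to 0.12, limma adjusted p = 0.998). Of all probe sets, 5.65% had wild type quercetin arrays above wild type control arrays without overlap, and 4.81% had POR-null control arrays above them.

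Ptprc encodes CD45, a phosphatase that sets the activity of Src family kinases in all leukocytes, so it does not mark T cells alone. It had 6.75, 6.54 and 7.06 log2 units in POR-null quercetin arrays, against 8.63, 6.85 and 6.87 in POR-null control arrays. It had 6.84, 8.37 and 7.34 in wild type quercetin arrays and 7.14, 5.80 and 6.01 in wild type control arrays. POR-null control array 1 and wild type quercetin array 2 were highest, as for the CD3 chains, and the groups overlapped in each comparison. It had the widest range of the members, 2.83.

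In wild type mice Ptprc averaged 7.52 ± 0.78 on quercetin and 6.32 ± 0.72 on control diet (SD, n = 3 arrays each), a difference of 1.20 (SE 0.49, 95% interval 0.15 to 2.25), or 2.30-fold. In POR-null mice it averaged 6.78 ± 0.26 on quercetin and 7.45 ± 1.02 on control diet (SD, n = 3 arrays each), a difference of -0.67 (SE 0.49, -1.72 to 0.39). On control diet the genotype difference was 1.13 (SE 0.49, 0.08 to 2.19) and on quercetin -0.73 (SE 0.49, -1.79 to 0.32). The interaction was -1.87 (SE 0.69, -3.35 to -0.38). The unadjusted p was 0.0285 for quercetin in wild type mice, 0.0368 for genotype on control diet and 0.0179 for the interaction, and limma adjusted p were 0.957, 0.734 and 0.998. These comparisons share the wild type control arrays, of which arrays 2 and 3 were the lowest of all 12. Without POR-null control array 1 the quercetin difference in POR-null mice was -0.08, the genotype difference on control diet 0.54 and the interaction -1.28. Without wild type quercetin array 2 the quercetin difference in wild type mice was 0.77 and the genotype difference on quercetin -0.31.

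Markers of other leukocytes moved with Ptprc. The B and plasma cell list (15 measured genes) had means of 6.95, 7.75 and 7.35 in wild type quercetin arrays, against 7.42, 6.38 and 6.27 in wild type control arrays. In POR-null mice the list means were 6.86, 6.61 and 7.24 on quercetin, against 7.83, 7.13 and 6.98 on control diet. Over the 12 arrays r between Ptprc and a list mean was 0.95 for B and plasma cells, 0.97 for pan-leukocyte genes, 0.90 for macrophages and dendritic cells and 0.87 for the T cell receptor list. It was 0.00 for colon epithelium and 0.08 for mast cells and granulocytes. The interaction had a median of -0.84 over the 19 measured pan-leukocyte genes, of which 11 had an unadjusted p under 0.05 in the lower direction, as had 2.92% of all probe sets, and 0 of 19 passed after adjustment by limma. Which leukocytes carried the Ptprc signal was not tested.

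**Figure D2:**
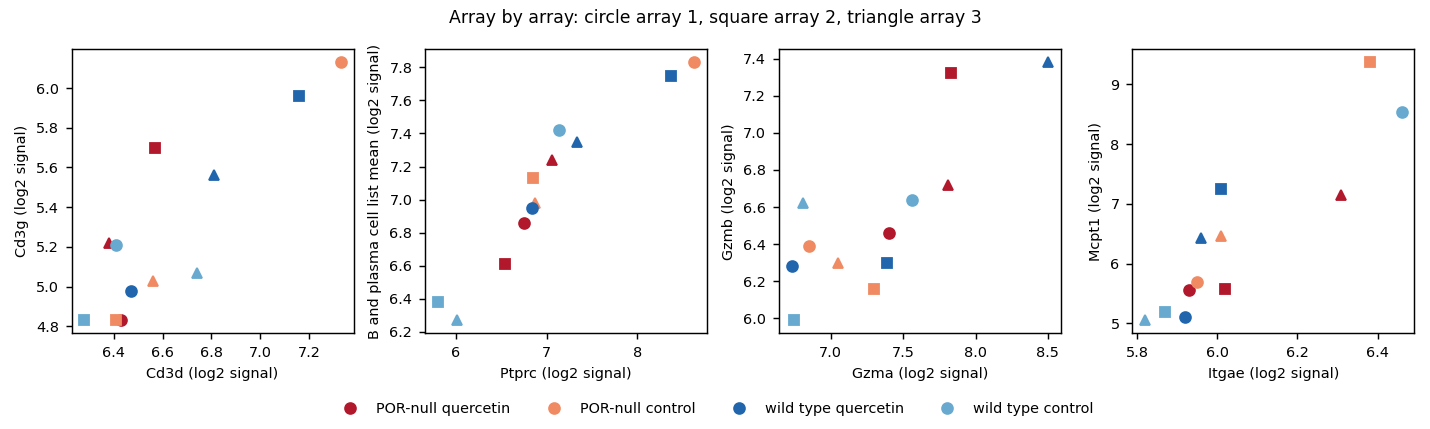
Log2 signal of 4 pairs, 1 point per array, coloured by group and shaped by array number. POR-null control array 1 and wild type quercetin array 2 lead the CD3 and Ptprc panels, wild type quercetin array 3 and POR-null quercetin array 2 the granzyme panel, and wild type control array 1 and POR-null control array 2 the Itgae panel.

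Itgae encodes the alpha E integrin chain, CD103, which pairs with the beta 7 chain and holds intraepithelial lymphocytes to E-cadherin. In the mouse it is also carried by some dendritic cells and by mucosal mast cells. It had 5.93, 6.02 and 6.31 log2 units in POR-null quercetin arrays, against 5.95, 6.38 and 6.01 in POR-null control arrays. It had 5.92, 6.01 and 5.96 in wild type quercetin arrays and 6.46, 5.87 and 5.82 in wild type control arrays. A single array was high in 3 of the groups, and the groups overlapped in every comparison. Quercetin differences were -0.09 (SE 0.17, 95% interval -0.45 to 0.28) in wild type mice and -0.03 (SE 0.17, -0.39 to 0.34) in POR-null mice, with limma adjusted p of 0.986 and 1. Without wild type control array 1 the wild type difference was 0.12.

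Itgae did not follow the CD3 chains (r = -0.33 and rho = -0.21 with Cd3d, r = -0.11 and rho = 0.23 with Cd3g). It went more with Gzma by rank (r = 0.35, rho = 0.63, and 0.51 within groups), but less so with Gzmb (r = 0.02, rho = 0.27). With the mean of the natural killer and cytotoxic list Itgae had r = 0.28 and rho = 0.55. Among 10327 probe sets of other genes above the median level, the most like it over the 12 arrays were those of Mcpt1 (r = 0.90, rho = 0.90) and Mcpt2 (r = 0.88, rho = 0.87), chymases of mouse mucosal mast cells, and of the desmosome protein Pkp1 (r = 0.86, rho = 0.70). Without wild type control array 1 and POR-null control array 2 these r were 0.74, 0.68 and 0.69, and within groups 0.94, 0.91 and 0.85. Mcpt1 had 5.55, 5.57 and 7.14 log2 units in POR-null quercetin arrays, against 5.69, 9.37 and 6.47 in POR-null control arrays. It had 5.11, 7.25 and 6.43 in wild type quercetin arrays and 8.53, 5.19 and 5.05 in wild type control arrays. The arrays highest in Mcpt1 were also the highest in Itgae. The partner chain Itgb7 ran only from 6.03 to 6.34, and Cdh1, which encodes E-cadherin, from 9.76 to 10.13. The likest genes of each single member were sought after values had been seen.

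**Figure D3:**
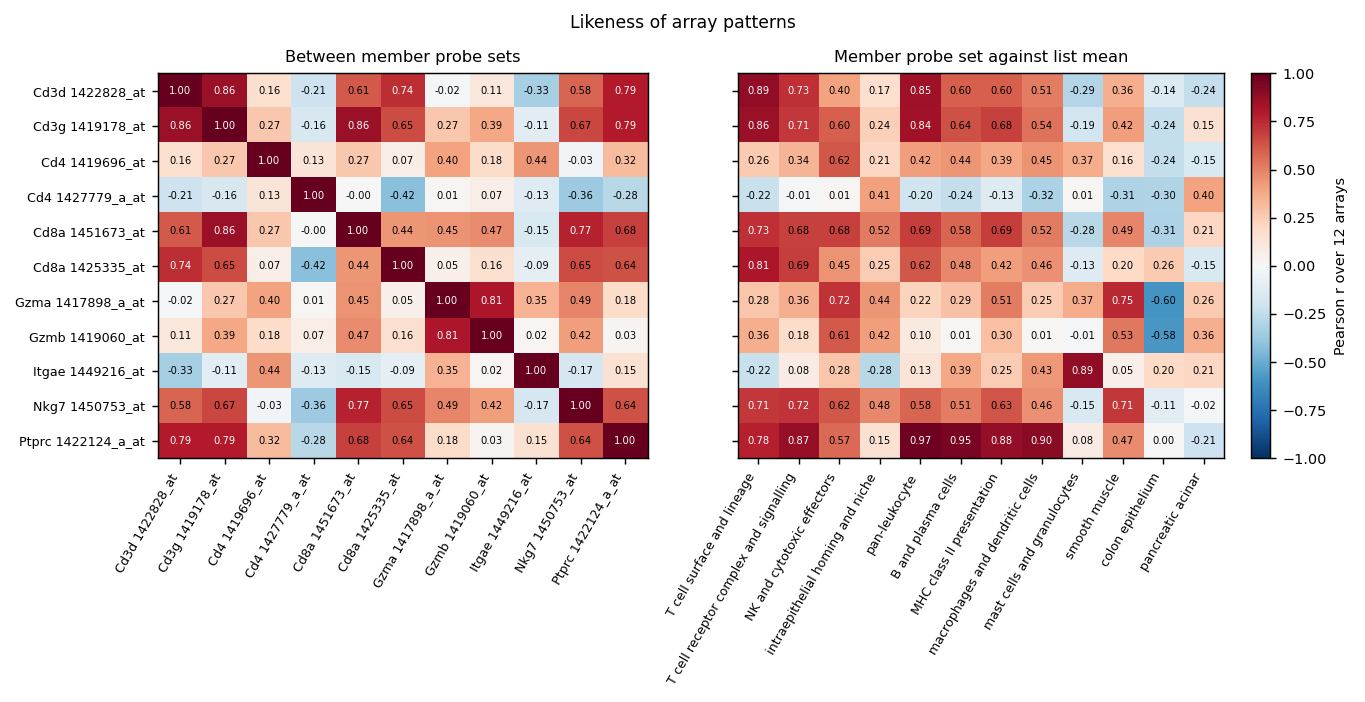
Pearson r over the 12 arrays between the 11 probe sets (left) and between each probe set and the mean of 12 marker lists (right), from -1 (blue) to 1 (red). Among Cd3d, Cd3g, Cd8a, Nkg7 and Ptprc r ran from 0.44 to 0.86, a range that some other pairs also reached, such as Nkg7 and Gzma at 0.49. Without wild type quercetin array 2 and POR-null control array 1, r was 0.17 for Cd3d with Ptprc. It was 0.82 for Cd3g with the brighter Cd8a probe set. Gzma and Gzmb pair at 0.81, and Itgae reaches 0.89 with mast cells and granulocytes.

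By the mean of the 9 measured members, the 10 most similar genes were Arhgap45 (r = 0.91, rho = 0.94), the immunoproteasome subunit Psmb8 (0.90 and 0.89), Arhgdib (0.88 and 0.92) and the B cell receptor for BAFF Tnfrsf13c (0.88 and 0.87). They went on with Cd74 (r = 0.87, rho = 0.74), the lymphocyte GTPase Gimap4 (0.87 and 0.91), H2-Aa (0.87 and 0.84), the epoxide hydrolase Ephx1 (0.86 and 0.88), Cd52 (0.86 and 0.85) and H2-Oa (0.86 and 0.84). Cd74, H2-Aa and H2-Oa belong to antigen presentation by MHC class II, and Arhgdib and Cd52 are shared by most leukocytes. Members were centred but not scaled for that mean. Ptprc, with a range of 2.83, therefore weighed more in it than the brighter Cd4 probe set, with 0.28.

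Over all members, quercetin in wild type mice gave values above control for 8 of 9 genes, with a median difference of 0.34 where the median of all probe sets was 0.00 and 50% were above control. The lowest was -0.09 for Itgae and the highest 1.20 for Ptprc. After adjustment 0 of 11 member probe sets passed by limma, as did 0% of all probe sets. At an unadjusted p under 0.05 there were 2, Nkg7 and Ptprc, where the share of all probe sets was 5.15%. Without overlap and above control there were 2, Cd8a and Nkg7, where the share of all probe sets was 5.65%. Lists of other cell types differed more in the same comparison. All 13 measured smooth muscle genes were above control (median 1.79, 10 at an unadjusted p under 0.05), all 8 MHC class II genes were above it (median 1.40), and all 9 pancreatic acinar genes were below it (median -1.22). Leaving out wild type quercetin array 3 gave a median of 0.15, and leaving out array 1 of that group gave 0.51. In POR-null mice 4 of 9 genes were above control, as were 51.8% of all probe sets, with differences from -0.67 for Ptprc to 0.61 for Gzma, 0 passed after adjustment by limma (0% of all probe sets) and 0 had an unadjusted p under 0.05 (2.82% of all probe sets).

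POR-null mice on control diet had values above wild type mice for 7 of 9 genes (46.2% of all probe sets), with a median of 0.06, and 0 of 11 probe sets passed by limma (0% of all probe sets), with 2 at an unadjusted p under 0.05 (6.79% of all probe sets). This comparison shares the wild type control arrays with that of quercetin in wild type mice. On quercetin 4 of 9 were above wild type (47.1% of all probe sets), with a median of -0.04, and 0 passed by limma (0% of all probe sets), with 0 at an unadjusted p under 0.05 (2.39%). Without overlap above wild type on quercetin there were 0, where the share of all probe sets was 3.08%. The interaction was above 0 for 3 of 9 genes (51% of all probe sets), with a median of -0.10 and 0 of 11 past the threshold (0% of all probe sets), with Ptprc alone at an unadjusted p under 0.05 (4.74%). Ordered by group mean, 33 pairs of neighbouring groups could be formed over the 11 probe sets. In 1 of them, POR-null control above wild type control for Nkg7, the arrays did not overlap, where the share over all probe sets was 2.51% of such pairs.

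**Figure D4:**
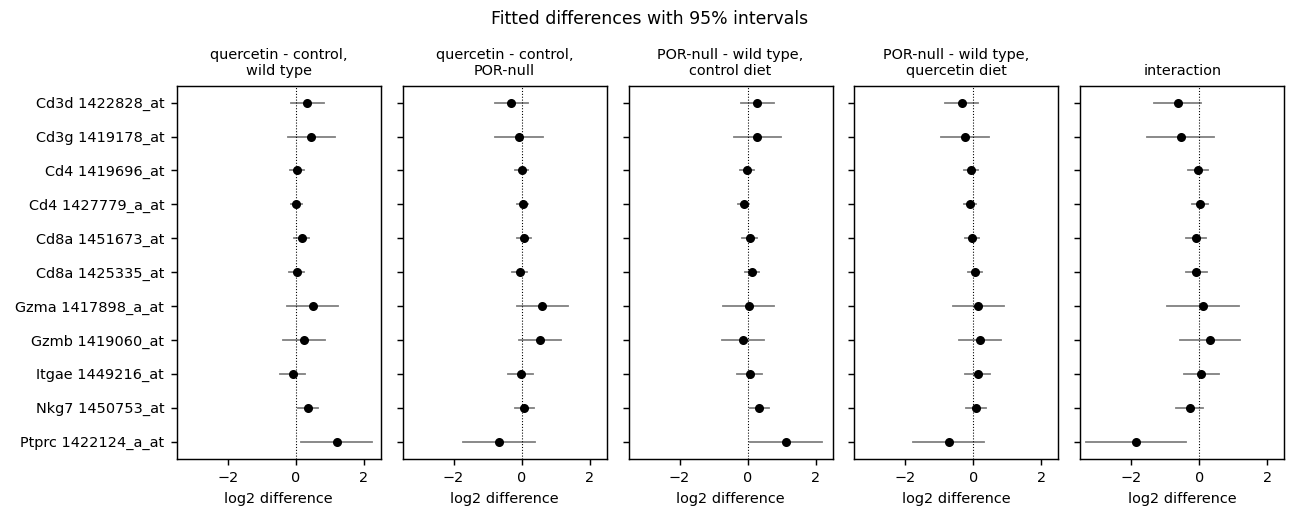
Fitted log2 differences (points) with 95% intervals (lines) for the 11 probe sets in 4 comparisons and the interaction, on 1 scale. Most intervals include 0, Ptprc has the widest, and those of Nkg7 and Ptprc lie above 0 for quercetin in wild type mice and for genotype on control diet.

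Of the T cell receptor list 14 genes were measured and 0 passed in any comparison by limma, as did 0% of all probe sets. In wild type mice on quercetin 11 of 14 were above control (median 0.12), where 50% of all probe sets were. At an unadjusted p under 0.05 there was 1 of 14, near the 5.15% of all probe sets. It was Lat, the adaptor that links the receptor to its signalling enzymes, with 6.47 against 6.16 (0.31, SE 0.14, adjusted p = 0.957). For genotype on control diet 9 of 14 were above wild type and 5 below (median 0.05), where 46.2% of all probe sets were above. There 2 of 14 had an unadjusted p under 0.05, where the share of all probe sets was 6.79%. These were Lat, at 6.53 in POR-null mice against 6.16 in wild type mice (0.36, SE 0.14, adjusted p = 0.718), and Cd8b1, the beta chain of CD8, at 4.87 against 4.43 (0.44, SE 0.18, adjusted p = 0.724). For quercetin in POR-null mice 9 of 14 were above control (median 0.02), and the smallest p was that of the adaptor Lcp2, with 4.76 against 5.06 (-0.29, SE 0.12, adjusted p = 1). Cd3e, the epsilon chain of CD3, ran only from 6.96 to 7.36 over the 12 arrays, with its highest value in wild type quercetin array 2.

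Of 21 T cell surface and lineage genes 13 were above control on quercetin in wild type mice (median 0.09), where 50% of all probe sets were. Satb1, a chromatin organiser of thymocytes, had the smallest p, with 4.63 against 4.25 (0.37, SE 0.12, limma adjusted p = 0.952). In POR-null mice 11 were above control and 10 below it (median 0.01), where 51.8% of all probe sets were above. The smallest p was that of Il7r, the interleukin 7 receptor, with 4.55 on quercetin against 5.12 on control diet (-0.56, SE 0.25, limma adjusted p = 1). Of the list, 0 passed in any comparison, as did 0% of all probe sets.

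Among 24 measured natural killer and cytotoxic genes 17 were above control on quercetin in wild type mice (50% of all probe sets). Their median was 0.03, with 0 past the threshold by limma (0% of all probe sets). Ccl5, a chemokine of activated T cells, had 7.54, 8.15 and 8.43 log2 units on quercetin, against 7.73, 7.22 and 7.40 on control diet (0.59, SE 0.23, limma adjusted p = 0.954). In POR-null mice Ccl5 had 7.75, 8.42 and 8.17 on quercetin and 7.76, 7.49 and 8.03 on control diet. Srgn, the proteoglycan that packs granules in many blood cells, differed by 1.21 in wild type mice (SE 0.52, limma adjusted p = 0.957) with an interaction of -2.07 (SE 0.73, limma adjusted p = 0.998). Over the list the interaction was above 0 for 11 genes and below it for 13 (median -0.02). Srgn was the 1 gene of the list with an unadjusted p under 0.05 in the lower direction, as had 2.92% of all probe sets. In POR-null mice 15 genes of the list were above control on quercetin and 9 below it (median 0.01), where 51.8% of all probe sets were above. The smallest p were those of Fcer1g, a signalling chain of Fc receptors (-0.29, SE 0.13, limma adjusted p = 1), and Klrc1, a natural killer receptor (-0.16, SE 0.08, limma adjusted p = 1). Gzmk, another granzyme, had 5.18, 6.02 and 5.91 in POR-null quercetin arrays, against 4.94, 5.0 and 5.61 in POR-null control arrays (0.52, SE 0.27, limma adjusted p = 1). The pore protein Prf1, which lets granzymes into the target cell, ran only from 5.12 to 5.41 over the 12 arrays.

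The homing and niche list, with 16 measured genes, gave 0 past the threshold by limma in any comparison, as did 0% of all probe sets. Quercetin in wild type mice put 11 above control (median 0.08), where 50% of all probe sets were. Among the 11, Il15ra, the receptor chain that presents interleukin 15 to intraepithelial lymphocytes, had 6.45 against 6.24 (0.21, SE 0.11, limma adjusted p = 0.957). On control diet 9 of the 16 were higher in POR-null than in wild type mice and 7 lower (median 0.04), where 46.2% of all probe sets were higher. The smallest p was that of Ahr, a ligand-activated factor that intraepithelial lymphocytes need in mice. It had 6.04 in POR-null mice against 5.63 in wild type mice (0.42, SE 0.19, limma adjusted p = 0.734). The next was H2-T3, which went the other way, with 7.30 against 7.66 (-0.36, SE 0.20, limma adjusted p = 0.775).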

How the data were processed

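Affymetrix 430A arrays received biotin-labelled RNA of 12 pools, per the labels. The deposited values were taken as log2 signal, already summarised and normalized by the authors. MAS5 and RMA stand in the submitters' processing notes, with no version or role. The values ran from 2.7 to 14.09, above 11.09, the natural log of the largest 16-bit scanner count. All were used as deposited.

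The 64 control probe sets were left out. Gene names came from the supplied array annotation, and RefSeq GRCm38.p6 gave coordinates and promoter windows. Of 22626 probe sets 20380 had 1 symbol, 691 several and 1555 none. All arrays entered 1 limma 3.58.1 fit in R 4.3.3 (lmFit, eBayes with trend=TRUE, 8 residual degrees of freedom) with 4 group means. Tests were two-sided, with Benjamini-Hochberg adjustment over all tested probe sets of a comparison and a threshold of 0.05. The fit was run on simulated data, where the median estimate of a known difference was checked. Noise there was independent between probe sets, without the shifts in cell mix that arrays can share. A gene was represented by its probe set of highest mean in counts of genes and list means. Intervals are those of the moderated fit, and the number of arrays limits the precision. A replicate is a pool, and the labels tie no pool to a cage, day or scan.

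All member probe sets are named. From each other list up to 3 genes of the smallest p in a comparison could be named, with the 10 likest genes by r to the mean of the members. Chosen after values were seen were the likest genes of single members, and Cd3e, Prf1, Itgb7, Cdh1, Epcam and the per-array values of Mcpt1. Members and lists were chosen with earlier results of these data known. Alternatives were trend=FALSE, quantile normalization, array weights, a filter on dim probe sets, the replicate number as a block, fits of the compared groups alone, probe set averages, and leaving out each array.

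Deviations of same-numbered arrays from their group means correlated at 0.193, 0.106 and 0.26 between POR-null control and wild type control arrays. For each other pair of groups at least 1 such value was under 0.1. The block gave 0 calls for that first pair.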

Additional observations from a re-analysis of the deposited data

How the results depend on the processing

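Of the 974 alternative values of the 55 member differences, 0 passed the adjusted threshold, and the smallest adjusted p was 0.151 for Ptprc between genotypes on control diet with array weights (1.04). In 50 of them the sign was the other one, 43 of these with an array left out, and none of the differences so affected was larger than 0.29 in size in the fit reported. Over all probe sets, array weights gave 2 calls for quercetin in wild type mice and 399 for genotype on control diet, where the fit reported gave 0. For genotype on quercetin diet the compared groups alone gave 1 call. With the replicate block that comparison gave 1 call, and the other 4 comparisons gave 0. An array had its best match in its own number in 14 of 36 pairings with another group, where each pairing offered 3 arrays to match. Leaving out 1 array at a time gave 0 to 3 calls for quercetin in wild type mice (3 without quercetin array 1), 0 to 1 for quercetin in POR-null mice, 0 to 41 for genotype on control diet (41 without wild type control array 1), and 0 to 1 for genotype on quercetin diet and for the interaction. The causes were not tested. Signal of the dimmer Cd4 probe set lay below the lower quartile of every array, which limits what it can show.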
